A study of Mus musculus with 6 samples.

Results

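The genes described here are the EGF receptor family with its ligands and feedback inhibitors, chosen by symbol from the expression table of the series. All 10 genes sought (Egfr, Erbb2, Erbb3, Tgfa, Hbegf, Areg, Ereg, Btc, Errfi1 and Lrig1) were among the 15803 genes of the table. RNA-seq was carried out on growth plate cartilage of mouse embryos at embryonic day 18.5 (E18.5), labelled as growth plate chondrocytes, in 6 libraries. In the 3 CKO libraries the genotype was Col2a1-Cre;Hnrnpk fl/fl, where the Col2a1 promoter drives Cre recombinase in chondrocytes and Cre cuts out loxP-flanked exons of Hnrnpk, the gene of an RNA-binding protein. In the 3 WT libraries it was Hnrnpk fl/fl without Cre, so both groups carried the floxed allele, and a Cre-only control was not analysed here. Littermates were compared, male and female embryos were both used, and whether embryos were pooled for a library is not given in the sources used here.

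The EGF receptor is a cell surface tyrosine kinase that signals through the Ras and MAP kinase cascade after a ligand joins it in pairs with itself or with another receptor of the family. Its ligands are made as membrane-anchored precursors and are released by ADAM metalloproteases. The signal induces its own inhibitors, and in the growth plate this receptor is known for its part in the remodelling of cartilage into bone.

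Egfr, the ligand gene Hbegf and the feedback inhibitor gene Errfi1 were higher in all CKO libraries than in any WT library, by 3.91, 5.53 and 3.19 times in mean CPM, the reads of a gene scaled to 1000000 reads per library. Of the other receptor and ligand genes, Erbb2 and Tgfa differed by less than the spread between libraries, and Erbb3, Areg, Btc and Lrig1 were detected in few reads. Ereg was detected in CKO 2 and CKO 3 and hardly elsewhere. CKO 2 had the lowest Egfr but the highest Hbegf and Errfi1 of the CKO libraries.

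The libraries held 1183743 to 1379674 reads for WT and 1153871 to 1454094 for CKO, so that 1 read was worth 0.688 to 0.867 CPM and a floor of 3 reads stood at 2.06 to 2.60 CPM. Intervals and floors cover counting error only, because no molecular identifiers were used and several reads can stem from a single molecule. The libraries did not stand at equal distances from each other. The chi-square of their reads over genes, per degree of freedom, was 1.29 between CKO 1 and CKO 3 but 14.2 and 13.1 between CKO 2 and each of these, and it was 2.06 between WT 1 and WT 2 but 9.43 and 8.65 between WT 3 and each of these. CKO 2 and WT 3 therefore stood apart within their groups, while between the genotypes the statistic was 18.8 to 24.7. Counting error alone gives values near 1 on this scale, and CKO 1 and CKO 3 lay close to that. The labels do not say whether libraries of a group came from separate embryos, and whether any were repeats of the same RNA was not tested. The p-values and n = 3 therefore refer to the spread between these libraries, which may differ from that between embryos. Hnrnpk itself measured 842, 955 and 944 CPM in WT and 759, 949.9 and 780.0 CPM in CKO, with overlapping groups (log2 difference -0.14, SE 0.15, limma adjusted p = 0.622), a value for the whole gene that does not check the labels, since the deletion removes only some exons. The genotypes are used as labelled.

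Chondrocyte markers were present in both groups, but their summed level was 13601 to 17817 CPM in WT and 3527 to 4168 CPM in CKO. Of the 7 markers, which include Col2a1, Acan, Sox9 and, at the highest mean level, Matn1, 5 fell. Hypertrophic markers summed to 1466 to 4591 CPM in WT and 12392 to 15208 CPM in CKO, which Spp1 dominated and in which Col10a1 measured 24.2 and 28.9 CPM on average. In bulk libraries, fewer cells of a type and less RNA per cell cannot be told apart, and this holds for every member described.

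Before the values, the 250 bases upstream of the annotated start of Egfr and of Errfi1 are shown, because these are the receptor and inhibitor genes that rose. Both come from RefSeq on GRCm38.p6, whose promoter table held windows for 7 of the 10 genes. Capitals mark matches, on either strand, to 4 motifs searched for: the GC box GGGCGG, the cAMP response element TGACGTCA, the AP-1 site (TGACTCA or TGAGTCA) and the hypoxia response core ACGTG. The Egfr window lies at chr11:16751953-16752202 on the plus strand. The Errfi1 window lies at chr4:150854820-150855069 on the plus strand, within an intron of the longest annotated transcript and upstream of a start inside the gene.
Egfr: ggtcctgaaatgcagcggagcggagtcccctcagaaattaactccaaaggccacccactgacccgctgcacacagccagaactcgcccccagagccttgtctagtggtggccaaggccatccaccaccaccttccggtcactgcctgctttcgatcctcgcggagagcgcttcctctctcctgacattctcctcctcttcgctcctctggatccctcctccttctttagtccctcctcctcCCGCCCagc
Errfi1: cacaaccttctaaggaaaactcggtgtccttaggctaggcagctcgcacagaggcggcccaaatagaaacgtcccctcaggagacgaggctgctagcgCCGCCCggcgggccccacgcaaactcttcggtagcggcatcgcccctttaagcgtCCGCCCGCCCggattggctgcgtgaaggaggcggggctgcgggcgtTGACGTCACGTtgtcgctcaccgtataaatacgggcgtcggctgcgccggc
The Egfr window held 1 GC box, 9 bases before the start. The Errfi1 window held GC boxes at 152, 97 and 93 bases before the start, of which the last pair overlap, a cAMP response element at 51 bases and a hypoxia response core that overlaps it at 45 bases. The other Errfi1 window, upstream of the start of the longest transcript, held no match. Among 32851 promoter windows of the same length, 32.7% held the GC box, 1.55% the cAMP response element, 4.46% the AP-1 site and 16.6% the hypoxia response core. The full cAMP response element also occurred in the window of Areg, 61 bases before its start, a gene that was detected in few reads here. A match describes these letters and is not evidence of binding.

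For the comparison of the genotypes, 7 of the 10 genes had a mean of at least 1 CPM and were tested with limma on log2(CPM + 1), with Benjamini-Hochberg adjustment over all 12155 genes tested. A gene is said to have risen or fallen where its adjusted p was under 0.05. Of these 7 genes, 3 rose and none fell, 4 did not pass, and no member was lower at an unadjusted p under 0.05 or by edgeR or DESeq2. Over all genes tested, 3.18% rose and 2.60% fell, 5.78% in all. The same 3 members passed the criterion used by the study, more than 1 on the log2 scale in either direction at an unadjusted p under 0.05. Of all genes tested, 5.30% passed it upward and 5.10% downward, 10.4% in all. The same 3 tested members did not overlap between the groups with CKO higher, against 14.5% of all genes tested (13.2% with CKO lower, and 27.7% in either direction). The median log2 difference over the 7 tested members was 1.56, and over the 6 of them with a WT mean of at least 1 CPM, which leaves out Ereg, it was 0.88, beside 0.013 over all genes tested. With CKO 1 and CKO 3 averaged and WT 1 and WT 2 averaged, which leaves 2 libraries a group, 0 members passed the adjusted threshold in limma and 4 had an unadjusted p under 0.05. Erbb3, Areg and Btc were below the minimum and were not tested.

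**Figure D1:**
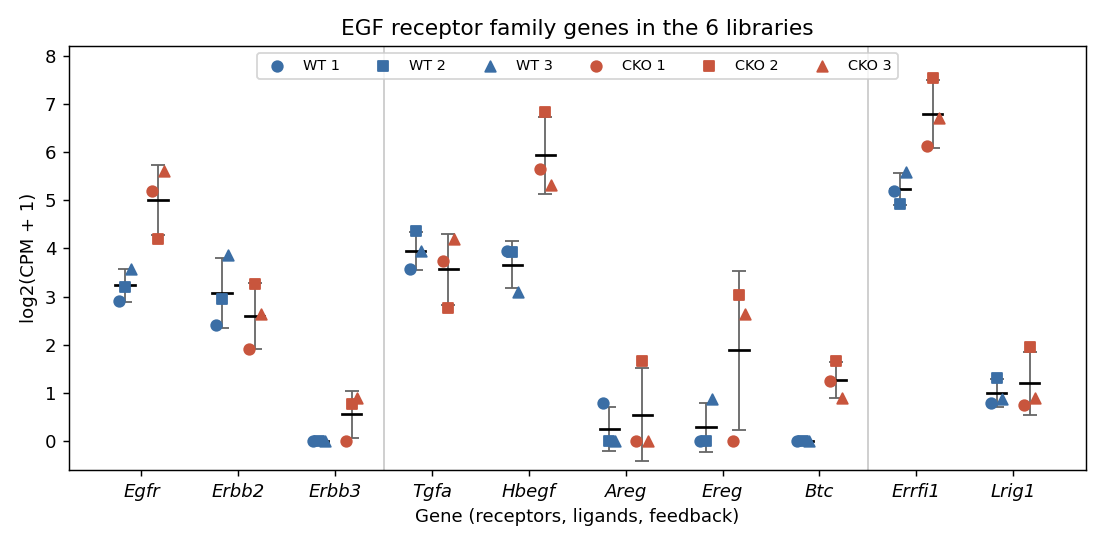
Level of each of the 10 genes in each library as log2(CPM + 1), with receptors, ligands and feedback genes separated by vertical lines. Points are libraries (blue WT, red CKO, with circle, square and triangle for replicates 1, 2 and 3), black lines the group means and bars the SD of 3 libraries. Egfr, Hbegf and Errfi1 have all CKO points above all WT points, and the points of Erbb2 and Tgfa are mixed.

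Among the receptors, Egfr (ENSMUSG00000020122) encodes the receptor that binds all of the EGF-type ligands described here and lies on GRCm38 chr11:16752203-16918158, plus strand. It measured 6.52, 8.25 and 11.0 CPM in WT 1, 2 and 3, from 9, 11 and 13 reads. In CKO 1, 2 and 3 it measured 35.8, 17.3 and 47.7 CPM, from 52, 24 and 55 reads. Every CKO library was above every WT library, and CKO 2 lay nearest to WT. The group means were 8.59 ± 2.25 CPM in WT and 33.6 ± 15.3 CPM in CKO (SD, n = 3), and Egfr rose by 1.77 on the log2 scale (SE 0.38, limma adjusted p = 0.0258). Counting error alone gave 95% exact Poisson intervals of 11.1 to 25.8 CPM for CKO 2, 26.7 to 46.9 CPM for CKO 1 and 35.9 to 62.0 CPM for CKO 3, so CKO 2 differed from the other CKO libraries by more than counting error. With CKO 2 left out, the difference was 2.17 (limma adjusted p = 0.0023). The call was lost without WT 1 (adjusted p = 0.115), WT 2 (0.0988), CKO 1 (0.102) or CKO 3 (0.117) in limma, with differences of 1.46 to 1.75 in these fits.

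Erbb2 (ENSMUSG00000062312; chr11:98412470-98437716, plus strand) encodes a receptor with no known ligand of its own that pairs with the other family members. It measured 4.35, 6.75 and 13.5 CPM in WT and 2.75, 8.66 and 5.20 CPM in CKO. The groups overlapped, and the highest library was WT 3. The means were 8.21 ± 4.75 and 5.54 ± 2.97 CPM (SD, n = 3), a log2 difference of -0.47 (SE 0.49, limma adjusted p = 0.629) that rested on 31 and 22 reads in all. Erbb3 (ENSMUSG00000018166; chr10:128567523-128589652, minus strand), a receptor for neuregulins with a weak kinase, was read once in CKO 2 and once in CKO 3 and not in any other library. At this depth no difference in Erbb3 was detectable.

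Within a library, Egfr and Erbb2 can be compared per kilobase of exon. Egfr was at 0.690, 0.562 and 0.374 times the level of Erbb2 per kilobase in WT and at 5.98, 0.920 and 4.22 times that level in CKO. Every ratio was higher in CKO than in WT. In CKO 2 the ratio was close to 1, from 24 reads of Egfr and 12 of Erbb2. It also rests on the annotated exon lengths of 11.3 and 5.21 kb, so no order of these genes is given for CKO 2. The log2 ratio averaged -0.93 ± 0.45 in WT and 1.51 ± 1.44 in CKO (SD, n = 3), and the two-sided exact permutation test gave p = 0.1, the smallest that 3 libraries against 3 allow (adjusted p = 0.2 over the 4 ratios tested).

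Among the ligands, Hbegf (ENSMUSG00000024486; chr18:36504927-36515805, minus strand) encodes heparin-binding EGF-like growth factor. It measured 14.5, 14.3 and 7.60 CPM in WT, from 20, 19 and 9 reads, and 48.8, 113 and 39.0 CPM in CKO, from 71, 157 and 45 reads. The groups did not overlap, and CKO 2 was the highest library. The means were 12.1 ± 3.91 and 67.0 ± 40.4 CPM (SD, n = 3), and Hbegf rose by 2.27 on the log2 scale (SE 0.40, limma adjusted p = 0.0108). The exact Poisson interval of CKO 2, 96.3 to 132 CPM, lay above those of CKO 1 (38.1 to 61.6 CPM) and CKO 3 (28.4 to 52.2 CPM). Hbegf kept its call with each library left out in turn, with differences of 1.82 to 2.57.

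Tgfa (ENSMUSG00000029999; chr6:86195223-86275719, plus strand) encodes transforming growth factor alpha, a ligand that binds Egfr with high affinity. It measured 10.9, 19.5 and 14.4 CPM in WT and 12.4, 5.77 and 17.3 CPM in CKO. The groups overlapped and CKO 2 was the lowest library. The means were 14.9 ± 4.35 and 11.8 ± 5.80 CPM (SD, n = 3), a log2 difference of -0.39 (SE 0.41, limma adjusted p = 0.629) that was 0.013 without CKO 2 (adjusted p = 0.987). Hbegf was at 1.79, 0.981 and 0.711 times the level of Tgfa per kilobase in WT and at 5.30, 26.3 and 3.02 times that level in CKO. The ligands thus lay close together in the WT libraries, while Hbegf was above Tgfa in each CKO library. The mean log2 ratio was 0.11 ± 0.68 in WT and 2.91 ± 1.62 in CKO (SD, n = 3; two-sided exact permutation p = 0.1, again the smallest possible, adjusted p = 0.2).

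Ereg, Areg and Btc, which encode epiregulin, amphiregulin and betacellulin, lie within 328 kb of each other on chr5:91074622-91402994. Ereg (ENSMUSG00000029377) had 1 read in all WT libraries together, in WT 3, and 0, 10 and 6 reads in CKO 1, 2 and 3, which is 0, 7.22 and 5.20 CPM. CKO 1 was thus at the level of most WT libraries although it was close to CKO 3 over all genes. Its log2 difference was 1.596 (SE 0.77, limma adjusted p = 0.264), and the ratio of pooled reads, scaled to depth, was 15.6 with a 95% exact counting interval of 2.42 to 655. Areg (ENSMUSG00000029378) had 1 read in WT 1, 3 reads in CKO 2 and none in the other libraries. Btc (ENSMUSG00000082361) had no read in WT and 2, 3 and 1 reads in CKO, all at or under the floor, so no fold is given. For each gene of the cluster, CKO 2 had the most reads.

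Of the feedback genes, Errfi1 (ENSMUSG00000028967; chr4:150853919-150868892, plus strand) encodes a cytoplasmic protein, also called Mig6, that binds the kinase domain of the receptor and blocks it. It was the most highly expressed member, with 35.5, 29.3 and 47.3 CPM in WT and 68.8, 185 and 104 CPM in CKO. The groups did not overlap and CKO 2 was the highest library. The means were 37.4 ± 9.16 and 119 ± 59.5 CPM (SD, n = 3), and Errfi1 rose by 1.56 on the log2 scale (SE 0.33, limma adjusted p = 0.0238). The exact Poisson intervals of the CKO libraries, 56.0 to 83.6 CPM for CKO 1, 163 to 209 CPM for CKO 2 and 86.2 to 124 CPM for CKO 3, did not overlap. The call was lost without WT 1 (adjusted p = 0.104), WT 2 (0.113) or CKO 3 (0.0842) in limma. Over all 6 fits with a library left out, the difference ran from 1.18, without CKO 2, to 1.89, without CKO 1, and the call was kept in both of these. Lrig1 (ENSMUSG00000030029; chr6:94604529-94700158, minus strand), a membrane protein that promotes the breakdown of the receptor, had 1, 2 and 1 reads in WT and 1, 4 and 1 reads in CKO. Its difference was not detectable at this depth (log2 0.21, SE 0.52, limma adjusted p = 0.862).

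**Figure D2:**
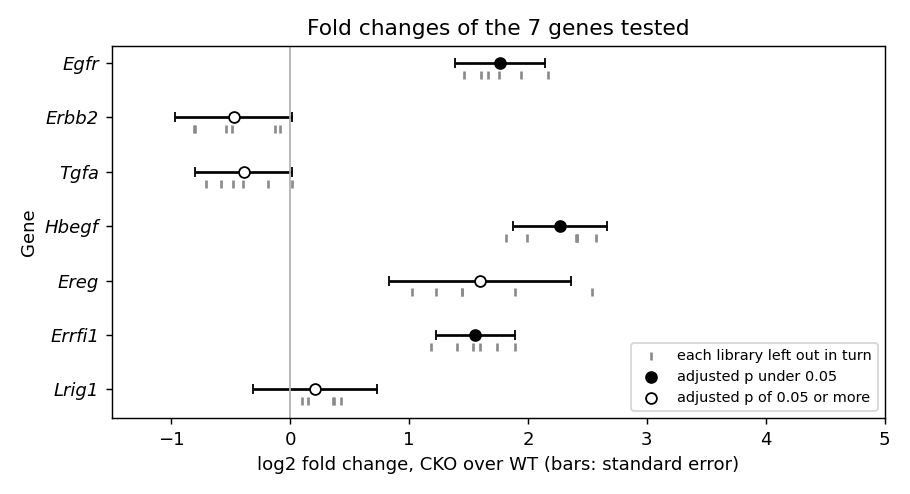
Log2 difference of CKO over WT on the log2(CPM + 1) scale for the 7 members tested, with the standard error as bars and the value with each library left out in turn as grey ticks. Filled points passed an adjusted p of 0.05, namely Egfr (1.77), Hbegf (2.27) and Errfi1 (1.56), and open points did not.

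Per kilobase of exon, the order of the levels was Errfi1 (10.4 CPM per kb), Hbegf (2.51), Tgfa (2.30), Erbb2 (1.58) and Egfr (0.758) in WT, with the other members at 0.199 CPM per kb or less. The WT ranges of neighbours in this order overlapped except those of Errfi1 (8.17 to 13.2) and Hbegf (1.57 to 2.999). In CKO the order was Errfi1 (33.3 CPM per kb), Hbegf (13.9), Egfr (2.97), Tgfa (1.82), Erbb2 (1.06) and Ereg (1.003). Per kilobase, Egfr thus passed from the fifth place to the third. The CKO ranges of Egfr (1.53 to 4.21) and Hbegf (8.07 to 23.4) did not overlap, while those of Egfr and Tgfa (0.890 to 2.67) did. The WT order rests on the annotated exon lengths. By mean CPM in WT, Tgfa (14.9) was above Hbegf (12.1) and Egfr (8.59) above Erbb2 (8.21).

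The members that rose did so in different proportions in the CKO libraries. Errfi1 was at 17.2, 11.2 and 13.6 times the level of Egfr per kilobase in WT and at 6.08, 33.7 and 6.90 times that level in CKO. CKO 2 had the highest of the 6 ratios, and the other CKO libraries had the lowest. The ratio of Hbegf to Egfr was 5.21, 4.05 and 1.62 in WT and 3.20, 15.3 and 1.92 in CKO, again highest in CKO 2. The difference between the genotypes was -0.30 for Errfi1 over Egfr and 0.49 for Hbegf over Egfr on the log2 scale, each with a two-sided exact permutation p of 0.8 (adjusted p = 0.8, n = 3), so neither was larger than the spread between libraries.

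**Figure D3:**
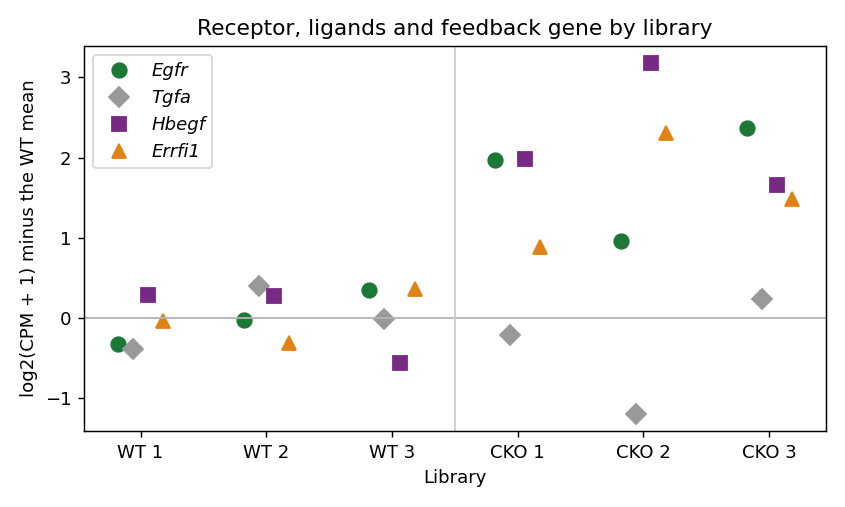
Levels of Egfr, Tgfa, Hbegf and Errfi1 in each library, as log2(CPM + 1) minus the mean of the 3 WT libraries for that gene, 1 point per gene and library. Egfr, Hbegf and Errfi1 lie above 0 in each CKO library, with Egfr the lowest of these and Hbegf the highest in CKO 2, where Tgfa is below all its other values.

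The genes whose profile over the 6 libraries was nearest to that of Egfr were sought among the 6826 genes that averaged 10 CPM or more, by the root mean square difference of log2(CPM + 1) after the WT mean of each gene was subtracted. The nearest was Gja1 (difference 0.234), which encodes the gap junction protein connexin 43, at 180, 237 and 245 CPM in WT and 831, 353 and 836 CPM in CKO. Gpx1, a glutathione peroxidase, came next (0.286), at 328, 314 and 293 CPM in WT and 1408, 694 and 1355 CPM in CKO. Palld, an actin-binding protein, followed (0.309), at 13.8, 13.5 and 30.4 CPM in WT and 71.5, 50.5 and 81.5 CPM in CKO. Like Egfr, each of these genes was lowest in CKO 2 among the CKO libraries, a likeness that follows from choosing them by their profile.

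Beyond the members, 74 genes of the pathway were listed by role, of which 70 were in the table and 62 were tested. Of these 62 genes, 8 rose and 54 did not pass, where 3.18% of all genes tested rose. None fell by limma, edgeR or DESeq2, although 2 fell by limma without CKO 2, Sox9 among them, and 4 were lower at an unadjusted p under 0.05, among them Pik3ca, Pik3r1 and Sox9. The median log2 difference was 0.28, beside 0.013 over all genes tested. By the criterion of the study, 14 genes were higher and 1 was lower, where 5.30% and 5.10% of all genes tested were. The genes that rose were spread over 5 of the 6 lists, with 4 of them in the list of feedback and early target genes.

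Of the other ligands and receptor, Egf, which encodes epidermal growth factor, was the gene tested. It had 0, 2 and 3 reads in WT and 2, 2 and 2 reads in CKO, with no detectable difference (log2 0.28, SE 0.56, limma adjusted p = 0.819). Epgn, Nrg2, Nrg3 and Erbb4 were not found by symbol in the expression table, and Nrg1 and Nrg4 were below the minimum. Of the 5 genes for ligand shedding, 1 rose. This was Timp3, which encodes an inhibitor of the sheddase ADAM17, at 139.9, 166 and 122 CPM in WT and 695, 219 and 676 CPM in CKO (log2 1.72, SE 0.38, limma adjusted p = 0.0262), and its call was kept in 1 of 6 fits with a library left out. Adam17 itself averaged 25.4 CPM in WT and 35.9 CPM in CKO (log2 0.53, SE 0.28, limma adjusted p = 0.308). Adam17 is named after its values were seen.

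Of 11 tested genes of receptor turnover and inhibition, 1 rose, and their median was 0.37. Ptpn2, a phosphatase that acts on the receptor, measured 116, 102 and 100.5 CPM in WT and 203, 159 and 201 CPM in CKO (log2 0.81, SE 0.17, limma adjusted p = 0.0234), a call kept in 2 of 6 fits with a library left out. Among 26 adaptors and kinases the median was -0.045, with 12 values above 0 and 14 below. Nras, a Ras protein, was the 1 gene of this list that rose, at 55.1, 48.0 and 35.5 CPM in WT and 102, 94.6 and 85.8 CPM in CKO (log2 1.03, SE 0.21, limma adjusted p = 0.0209), and it kept its call in 3 of 6 such fits.

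The feedback and early target genes of the MAP kinase cascade had a median of 1.17, with 12 of 12 tested values above 0, of which 4 passed. Some of these values were close to 0, namely Spred1 (0.034), Phlda1 (0.098), Myc (0.10) and Spred2 (0.13), which are named after their values were seen. Dusp4, Dusp5, Spry1 and Spry2 were below the minimum and were not tested. Over all genes tested, 6180 of 12155 values were above 0. Dusp6, a phosphatase that switches off ERK, measured 10.9, 8.25 and 6.76 CPM in WT and 35.1, 43.3 and 36.4 CPM in CKO, with no overlap (log2 2.04, SE 0.27, limma adjusted p = 0.00314). Fos, an immediate early transcription factor, had 3, 3 and 2 reads in WT, at the floor, and 13.8, 13.0 and 11.3 CPM in CKO (limma adjusted p = 0.00795), with a ratio of pooled reads, scaled to depth, of 6.22 (95% exact counting interval 2.93 to 15.2). Its relative Fosl1 measured 4.35, 0 and 2.53 CPM in WT and 14.4, 65.7 and 20.8 CPM in CKO, highest in CKO 2 as were Hbegf and Errfi1 (log2 3.40, SE 0.68, limma adjusted p = 0.0190). Ier3, an early response gene, measured 39.1, 43.5 and 38.02 CPM in WT and 98.3, 97.4 and 91.0 CPM in CKO, with the CKO libraries close to each other (log2 1.23, SE 0.18, limma adjusted p = 0.00454). Dusp6, Fos and Ier3 kept their calls in 6 of 6 fits with a library left out, and Fosl1 in 4 of 6. Fosl1 also lost its call in limma with a pseudocount of 0.1 (log2 4.69, adjusted p = 0.0667), without WT 2 (0.0663) and without CKO 3 (0.0602).

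Of 7 genes tied to EGF receptor signalling in cartilage, Prg4 rose. Prg4 encodes lubricin, the lubricant of the joint surface, and measured 5.80, 3.002 and 4.22 CPM in WT and 59.8, 30.3 and 52.0 CPM in CKO (log2 3.16, SE 0.35, limma adjusted p = 0.00123), a call kept in 6 of 6 fits with a library left out. Mmp13, a collagenase of hypertrophic cartilage, measured 257, 260.4 and 650.5 CPM in WT against 2155, 377 and 2301 CPM in CKO (limma adjusted p = 0.118). Tnfrsf11b, the gene of osteoprotegerin, measured 37.7, 43.5 and 90.4 CPM in WT against 611, 61.4 and 673 CPM in CKO (limma adjusted p = 0.0879). Both passed the criterion of the study but not the adjusted threshold and overlapped between the groups, with CKO 2 below WT 3. Without CKO 2 both were called by limma (adjusted p = 9.29e-04 for Mmp13 and 8.68e-05 for Tnfrsf11b), and Tnfrsf11b was also called by edgeR (0.0423) and DESeq2 (0.0360). Sox9, the transcription factor of chondrocyte identity, was the 1 gene of the list with a lower level, at 68.1, 81.8 and 102 CPM in WT and 42.0, 73.6 and 32.1 CPM in CKO (log2 -0.83, SE 0.29, limma adjusted p = 0.137), and it fell without CKO 2 (log2 -1.15, adjusted p = 0.00888). These 3 genes are named after their values were seen.

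**Figure D4:**
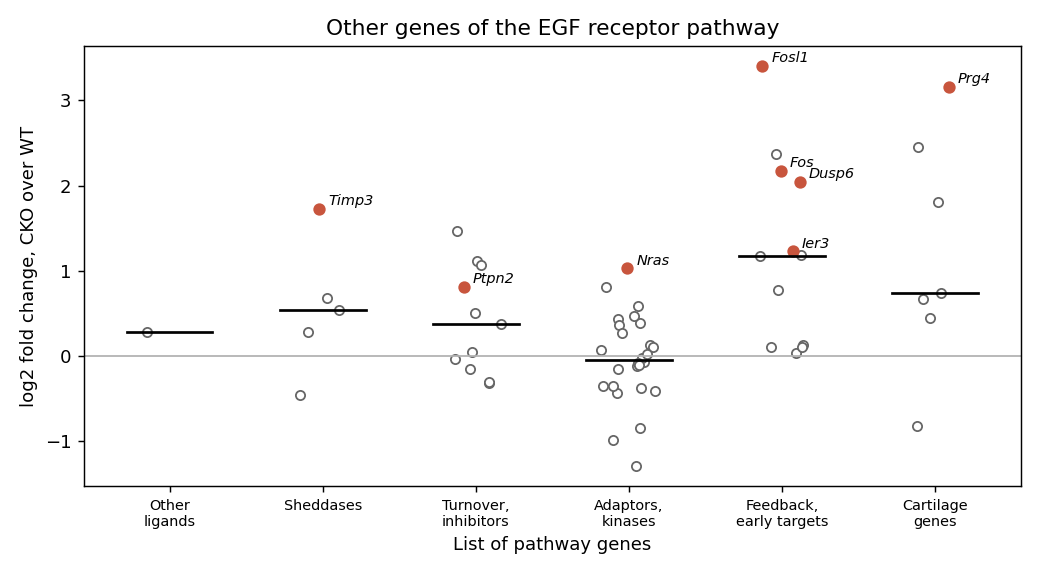
Log2 difference of CKO over WT for the 62 tested pathway genes that are not members, by list, with 1 point per gene, filled and named where the adjusted p was under 0.05, and a black line at the median of each list. The tested feedback and early target genes lie above 0, from 0.034 to 3.40, and the adaptors and kinases lie on both sides of 0.

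Markers of other cell types moved with the genotype in part. The epidermis is a tissue with high EGF receptor expression, and 11 of its 15 markers were in the table. Their summed level was 29.6 to 64.5 CPM in WT and 152 to 225 CPM in CKO, highest in CKO 2, and 2 of 5 tested genes rose. Perp, the highest of them over all libraries, measured 13.0, 18.8 and 8.45 CPM in WT and 97.0, 145 and 104 CPM in CKO, and Krt17 was the other that rose. The defining markers Krt5 and Krt14 were not found by symbol in the expression table, and Trp63 averaged 6.53 CPM in WT and 6.46 CPM in CKO. Krt10, the highest of them in WT, averaged 28.4 CPM in WT and 36.5 CPM in CKO (limma adjusted p = 0.484), Krt1 had 2 reads in WT and 1 in CKO, and Krt15 had 1 read in each group. Epcam, Lor and Grhl3 had no read in WT and 7, 1 and 1 reads in CKO. The part of epidermal RNA in the values of Egfr, Hbegf and Errfi1 was not tested.

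Sox10, a marker of Schwann cells, which carry Erbb3, had 1 read in all WT libraries together and 3 reads in CKO. Macrophage and osteoclast markers summed to 99.3 to 112 CPM in WT and 179 to 193 CPM in CKO. Of these, Cd68 rose, Ctsk was the highest, and Ptprc, the marker of blood-derived cells, had 0 reads in WT and 1 in CKO. Skeletal muscle markers, led by Myog, summed to 19.5 to 88.7 CPM in WT and 59.8 to 240 CPM in CKO, with the highest sum in CKO 2 and none called. In CKO, 4 of 5 tested were higher and 1 was lower. Myog averaged 14.7 ± 17.2 CPM in WT and 69.0 ± 95.2 CPM in CKO (SD, n = 3). Acta1 averaged 4.10 and 5.08 CPM, and Myh3 had 5 reads in WT and 2 in CKO. Osteoblast markers, led by Col1a1, summed to 278 to 553 CPM in WT and 249 to 304 CPM in CKO, with none called. Of 4 tested, Col1a1 was lower in CKO and 3 were higher, among them Bglap (6.16 and 19.4 CPM on average) and Sp7 (2.85 and 4.26 CPM). Perichondrium and tendon markers summed to 1105 to 1523 CPM in WT and 284 to 499 CPM in CKO. This sum was led by Dcn, which fell, from 1138 to 323 CPM on average. Of 5 tested, 3 were lower and 2 higher in CKO. Tnmd was lower (72.6 and 31.8 CPM) and Prrx1 higher (23.6 and 48.5 CPM), both without overlap and not called. Endothelial and red blood cell markers stayed at or below 4.22 and 3.47 CPM in sum. The part of these cell types in the members' values was not tested.

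Some members share their position with other annotated genes. Erbb2, Tgfa, Ereg and Lrig1 overlap a gene on the opposite strand over 9, 118, 141 and 144 exonic bases (Mien1, Gm43917, Gm19610 and Slc25a26). The library kit keeps the strand, but the strand setting of the counting is not given in the sources used here, so reads in these stretches cannot be assigned with certainty. None of the 10 members had a near copy of at least 90% identity over at least 300 bases among the annotated transcripts of other genes.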

How the data were processed

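Poly(A) RNA of growth plate cartilage was measured in 6 libraries made with a stranded mRNA kit. The submitters' processing notes name cutadapt 2.5, HISAT2 and featureCounts 1.6.3. The genome build is not given in the sources used here. The authors deposited CPM, reads per gene scaled to 1000000 reads per library, and 100% of the values were whole multiples of 1 read (tolerance 0.001 reads), so the reads were recovered. The members and the gene lists were chosen with earlier results of these data known.

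Libraries were grouped by their genotype labels. With limma 3.58.1 in R 4.3.3, log2(CPM + 1) was fitted on genotype, without covariates, for the 12155 genes that averaged 1 CPM or more. Empirical Bayes moderation used a mean-variance trend, and p was adjusted by Benjamini-Hochberg. Fold changes on this scale understate the change of genes with few reads. All members were named, with each pathway gene past the adjusted threshold (or the one of smallest p in a list without any), the 3 genes nearest to Egfr, and the leading and defining markers of each cell type list. The ratios within libraries were tested with two-sided exact permutation tests. Positions came from GENCODE release M21 on GRCm38, by Ensembl identifier. The fits were tested on simulated counts. Alternatives were a pseudocount of 0.1, no filter, a minimum of 10 CPM, the replicate number as a block, each library left out, TMM-scaled CPM, edgeR 4.0.16 and DESeq2 1.42.0 on the recovered reads and an adjusted p of 0.01. Averaging the like libraries was chosen after seeing the data. The values of some listed genes are not reported here.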

Additional observations from a re-analysis of the deposited data

How the results depend on the processing

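Egfr, Hbegf and Errfi1 were called by limma with a pseudocount of 0.1, with no filter, at a minimum of 10 CPM, after TMM scaling, with the replicate number as a block, and by edgeR and DESeq2 on the recovered reads. Their adjusted p over 15 alternatives was 0.00229 to 0.288 for Egfr, 2.26e-05 to 0.116 for Hbegf and 4.70e-04 to 0.172 for Errfi1. With no filter, 5 members passed the criterion of the study upward, with Ereg and Btc added. At an adjusted p under 0.01, 0 members, 4 pathway genes and 114 higher and 71 lower genes in all were called by limma, where the 3 members all had an unadjusted p under 0.05. With CKO 1 and CKO 3 averaged as 1 library, limma called 2 members (Egfr was lost, adjusted p = 0.107), 5 pathway genes and 139 higher and 120 lower genes. With WT 1 and WT 2 averaged as well, it called 0 members, 0 pathway genes and 5 higher and 6 lower genes, from fewer libraries, while 4 members and 14 pathway genes had an unadjusted p under 0.05. When single libraries were left out, the counts ran from 1 to 3 for members higher and 0 to 0 for members lower, 3 to 4 for members past the criterion, 4 to 11 for pathway genes higher and 0 to 2 lower, and 123 to 692 for all genes higher and 79 to 606 lower. In the same fits the log2 difference of Egf ran from -0.24 to 0.67 and that of Tgfa from -0.71 to 0.013, with the sign turned for Egf without WT 1 (limma adjusted p = 0.860) and for Tgfa without CKO 2 (0.987). The cause of these changes was not tested beyond what is stated.

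The replicate numbers did not pair the libraries. Same-numbered libraries correlated at 0.073, -0.21 and -0.15 in their deviations from the group means over 6827 genes, and no library correlated best with its own number. With the replicate number as a block, limma called 225 higher and 160 lower genes, 3 members and 7 pathway genes, where Ptpn2 (adjusted p = 0.0551) and Fosl1 (0.0544) were lost and Mmp13 (0.0472) was added, with an adjusted p of 0.0378 for Egfr, 0.0113 for Hbegf and 0.0466 for Errfi1. Depth limits Erbb3, Areg, Btc, Ereg and Lrig1, which had at most 17 reads over the 6 libraries.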
